A study of Homo sapiens with 2 samples.

Results

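Hub anchors are the bins of chromatin from which many loops start. They were chosen by their number of loops in an H3K27ac HiChIP of KYSE180, an established ESCC cell line: a hub is an autosomal bin of 2 kb that took part in 6 or more loops. Of 34902 distinct anchors, 1038 were hubs. Among the 34612 autosomal anchors outside 2 pericentromeric stretches that were left out (50 kb of chromosome 16 from 46386001 and 218 kb of chromosome 10 from 42384001), this was 3.0%. The stretches held 17 and 8 further bins with 6 or more loops, and no bin of chromosomes X, Y or M had as many. The KYSE180 cells were transfected with a non-targeting siRNA in both libraries, which carry the replicate numbers 1 and 2, and a single list of 31950 loops was deposited for them. There is thus 1 condition, no replicate spread and no comparison of conditions, and all intervals given here (95%, Wilson for shares, exact Poisson for counts, order statistics for medians) cover counting error only.

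H3K27ac is an acetylation of histone H3 that marks active promoters and enhancers. In HiChIP, DNA ends that lie close together in the nucleus are ligated, the chromatin is precipitated with an antibody, and each sequenced pair of ends reports 1 contact. The study's methods describe the loops called from these data as active loops associated with p63, so a count of loops is a count of this kind and not of all contacts of a bin. Whether p63 lies at a hub was not looked up. A bin with many loops is one whose acetylated chromatin was caught next to many other acetylated bins, as is known for promoters contacted by several enhancers and for the large enhancer clusters called super-enhancers (SEs), which in squamous cells are often bound by ΔNp63. The labels name hg19 as the build, and bins on 12 autosomes lay beyond the chromosome ends of hg38. Gene positions and sequence at hand were on hg38, so hubs are given by position on hg19, 1-based, with no gene assigned to them and no sequence shown. For the same reason the squamous markers of KYSE180 were not looked up at the hubs.

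The members were selected on the number of loops, so these numbers describe the hubs and support nothing further. The hubs had a median of 7 loops (interquartile range 6 to 9) and at most 27. A total of 365 hubs (35.2%) had exactly 6 loops, 220 had 7, 152 had 8, 95 had 9 and 206 (19.8%) had 10 or more. Only 11 hubs reached 20 loops. Just below the threshold, 722 anchors had 5 loops. Coverage here is the signal that the list gives for the first bin of each loop. The anchors with 5 loops had a median coverage of 24 (interquartile range 17 to 35), against 30 (22 to 43) for the hubs with 6 loops. The threshold therefore lies on a smooth slope, and a count of 6 loops has a Poisson interval of 2.20 to 13.1.

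**Figure D1:**
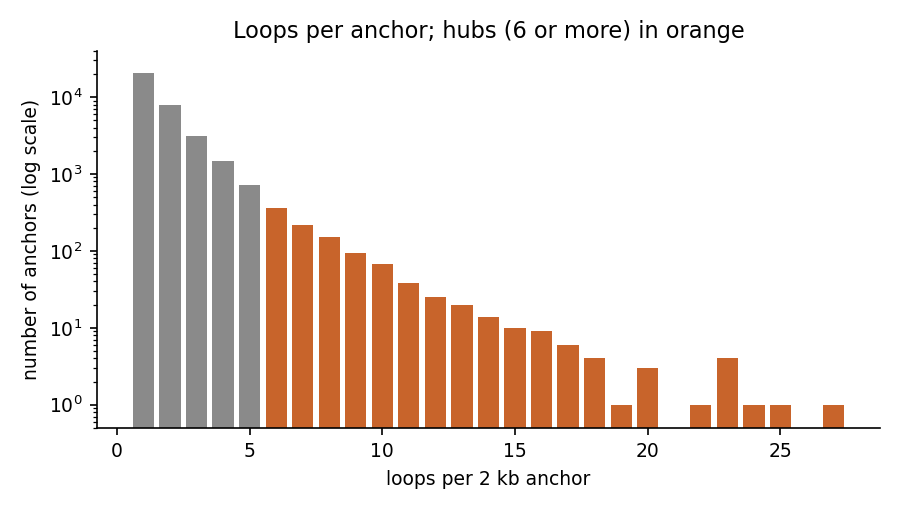
Number of autosomal anchors (y axis, log scale) by their number of loops (x axis), with the hubs in orange and the other anchors in grey. The bars fall steadily across the threshold, from 722 anchors with 5 loops to 365 with 6, and end in 11 hubs with 20 or more.

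Hubs made up few of the anchors but took a larger part of the loops, as the rule requires. They were an end of 7220 loops, or 22.6% of the list (22.1 to 23.1%), with 7681 contacts. Of these loops, 6048 joined a hub to an anchor with fewer than 6 loops, and 1172 joined 2 hubs.

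The hubs were spread unevenly over the chromosomes. Chromosome 11 had 227 hubs (21.9% of all), chromosome 3 had 120, chromosome 19 had 104 and chromosome 17 had 102. These 4 chromosomes held 53.3% of the hubs but 34.1% of the loops and 26.5% of the annotated autosomal protein-coding genes. Per 100 protein-coding genes of the chromosome, there were 17.2 hubs on chromosome 11, 11.1 on chromosome 3 and 9.25 on chromosome 14, whereas chromosome 19, with the second most genes, had 7.05. Chromosome 1, with the most genes, had 2.62, and chromosome 2 had 1.04. Over the 22 autosomes, hubs and genes had a Spearman correlation of 0.689 and a Pearson correlation of 0.547. These are descriptions of points that share 1 list and differ in length and coverage.

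At the other end, chromosome 4 had no hub. It held 585 anchors and 757 protein-coding genes, and its most connected anchor had 4 loops. For a count of 0 of 585 anchors, a limit of 3 anchors gives a share of up to 0.513%, beside the 3.0% of all autosomal anchors. This limit is no Wilson interval and treats neighbouring bins as independent. Hubs lay close together and chromosome 4 was picked for having none, so the limit is a rough figure and no test. The first bins of chromosome 4 had a median coverage of 9, against 6 to 19 on the other autosomes. Chromosome 5 had 6 hubs (0.464% of its anchors). On chromosome X, 0 of 250 anchors had 6 loops, which allows up to 1.20% by the same limit, and the most connected had 5.

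**Figure D2:**
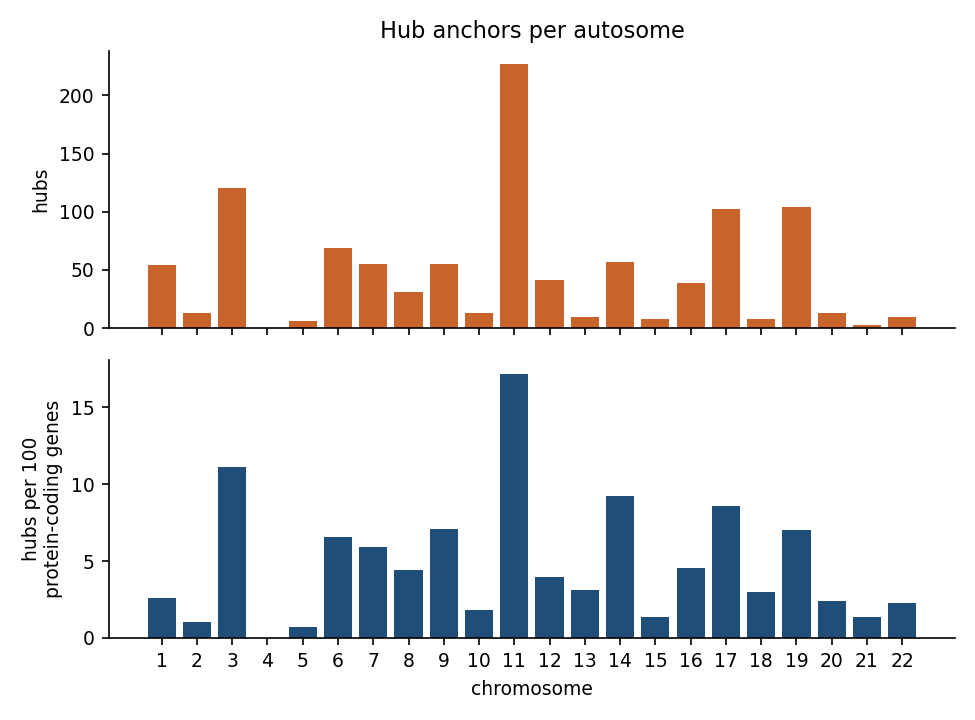
Number of hubs on each autosome (top) and the same number per 100 annotated protein-coding genes of that chromosome (bottom). Chromosome 11 stands highest in both panels, with 227 hubs and 17.2 per 100 genes, and chromosome 4 has none.

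Gene names can be tied to the hubs only at the level of whole chromosomes, and sharing a chromosome does not place a gene at a hub. Chromosome 3 carries TP63, which encodes ΔNp63, and SOX2, a transcription factor of squamous and stem cells. Chromosome 11 carries CCND1 (cyclin D1), FOSL1 of the AP-1 family, and the nuclear RNAs NEAT1 and MALAT1. MYC and its neighbour PVT1 are on chromosome 8, which had 31 hubs. The ligands of the EGF receptor AREG and EREG are on chromosome 4, with no hub. HBEGF and TGFA, also genes of growth signalling, are on chromosomes 5 and 2, with 6 and 13 hubs. Several squamous genes are likewise on chromosomes with few hubs. They include FAT2 on chromosome 5, DSG3, DSC3 and LAMA3 on chromosome 18 (8 hubs) and COL17A1 on chromosome 10 (13 hubs). Of 29 genes of squamous identity and adhesion, 10 were on chromosomes 3, 11, 17 or 19, as were 6 of 18 epithelial transcription factors, 4 of 11 AP-1 genes, 5 of 18 genes of growth signalling, 1 of 9 BET and acetylation genes and 2 of 3 nuclear RNAs. The same held for 2 of 12 housekeeping genes and 3 of 16 genes of other cell types, and none of these counts was tested. Of all annotated autosomal protein-coding genes, 26.5% are on these 4 chromosomes, which were picked for having the most hubs.

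On chromosomes 3 and 11 the hubs were concentrated in parts of the chromosome. All 120 hubs of chromosome 3 lay between 120 and 200 Mb, where 5.40% of 2224 anchors were hubs (4.53 to 6.41%). The rest of the chromosome had 0 hubs among 660 anchors, which allows a share of up to 0.455% by the same rough limit as for chromosome 4. On chromosome 11, 178 of the 227 hubs lay between 65 and 70 Mb. There 27.9% of 639 anchors were hubs (24.5 to 31.5%), 33 of the other 49 hubs lay between 60 and 65 Mb, and the rest lay elsewhere on the chromosome. Both segments had been picked for the high coverage of their bins in these data, and no measurement of copy number was used. Together they held 28.7% of the hubs (26 to 31.5%) and 6.13% of the anchors with 1 loop (5.81 to 6.47%). Among first bins with a coverage of 20 or more, the shares were 30.7% (27.8 to 33.7%) and 15.8% (14 to 17.9%). Inside the segments 10.4% of anchors were hubs, and outside them 2.33%.

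Over windows of 1 Mb, hubs were found in 283 of the 1961 windows with an anchor, and 29 windows held 50% of them. The fullest window was chromosome 11 from 67 to 68 Mb, where 61 of 138 anchors (44.2%) were hubs. The window next to it, from 66 to 67 Mb, had 53 of 160, and chromosome 3 from 189 to 190 Mb had 36 of 113. Outside these 2 segments, chromosome 6 from 26 to 27 Mb had 25 of 104, chromosome 14 from 23 to 24 Mb had 22 of 114, chromosome 8 from 128 to 129 Mb had 22 of 106, and chromosome 1 from 209 to 210 Mb had 17 of 56. The median coverage of the first bins in these 7 windows was 22 to 34. Just below the segment of chromosome 11, the window from 64 to 65 Mb had 19 of 109 at a median coverage of 19. Elsewhere a window could be full at low coverage. Chromosome 19 from 12 to 13 Mb had 12 hubs among 54 anchors (22.2%) at a median coverage of 13. The windows, too, were picked by their values.

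The 12 hubs with the most loops lay on 5 chromosomes, 7 of them on chromosome 11. The most connected of all, the bin from 66886001 to 66888000 on chromosome 11, had 27 loops (Poisson interval 17.8 to 39.3) with 28 contacts and a coverage of 147. Its partners lay up to 790 kb away on the side of lower positions (9 loops) and up to 3230 kb away on the other side (18 loops), and 17 of them were hubs. The bin from 67080001 to 67082000 had 25 loops and 28 contacts. In this bin the sides were reversed, with 18 loops to lower and 7 to higher positions, and its strongest loop had 4 contacts with the bin 10 kb below it. The bin from 67196001 to 67198000 had 24 loops, that from 67158001 to 67160000 had 23, that from 67032001 to 67034000 had 22, that from 67006001 to 67008000 had 20, and that from 67056001 to 67058000 had 19. These 7 bins lie within 312 kb. Of the 21 pairs among them, 10 were joined by a loop, and each of the 7 had no partner with only 1 loop. The bin from 67032001 had the most hub partners of any hub, 18 of its 22.

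The other 5 were less tied to fellow hubs. The bin from 79848001 to 79850000 on chromosome 17 had 23 loops and 29 contacts, the most contacts of the 12. It had 5 loops with 2 or more contacts, a number that 1 other hub reached and none exceeded, and 4 hubs among its partners. That other hub, the bin from 79318001 to 79320000 on the same chromosome, had 7 loops and 13 contacts and was picked after its values were seen. The bin from 23450001 to 23452000 on chromosome 14 had 23 loops and, like the first hub, a coverage of 147. Its loops were all short, with the farthest partner 322 kb away, and 7 partners were hubs. On chromosome 6, the bin from 27832001 to 27834000 had 23 loops, 8 of them of 1 Mb or more, and a median span of 390 kb. The bin from 26172001 to 26174000, on the same chromosome, had 20 loops with a median span of 49 kb, none beyond 400 kb. No loop joined these 2 bins. The bin from 189618001 to 189620000 on chromosome 3 had 20 loops, 15 of them to lower positions, which reached 3258 kb. Counting error does not settle the order among the 12, since the Poisson intervals of all 206 hubs with 10 or more loops overlapped that of the first.

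**Figure D3:**
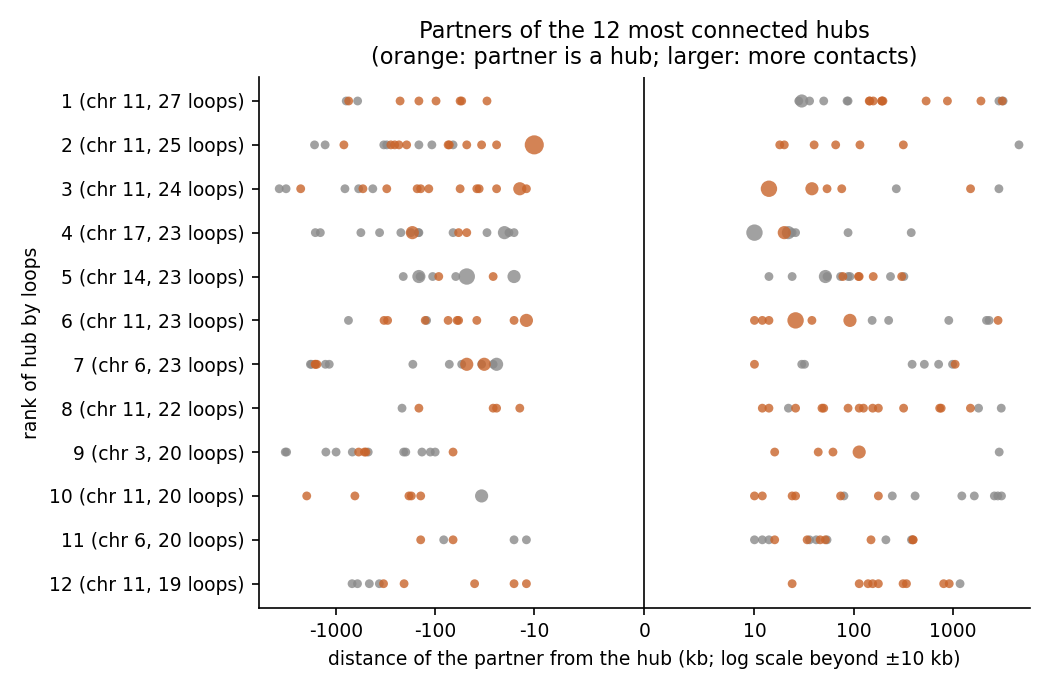
Distance of each partner from the hub in kb (x axis, log scale beyond 10 kb on either side) for the 12 most connected hubs (y axis, by rank), with hub partners in orange, other partners in grey, and larger points for loops with more contacts. The hubs on chromosome 11 have mostly orange partners, the hub on chromosome 14 has none beyond 322 kb, and no partner lies closer than 10 kb because the list starts there.

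Hubs reached both near and far. The median span of their loops was 116 kb (interquartile range 38 to 360 kb, interval of the median 110 to 122 kb), against 122 kb (36 to 408 kb, 118 to 126 kb) for loops without a hub, so the 2 intervals overlapped. These figures leave out 5 hub loops that end in a left-out stretch. The loops that joined 2 hubs were shorter, with a median of 98 kb and an interval of 84 to 112 kb. Of the 1038 hubs, 931 (89.7%) had a loop under 50 kb, 525 (50.6%) had one of 1 Mb or more, and 476 (45.9%) had both. A bin with more loops has more chances of both, and these counts were not made for other anchors. Of the hub loops, 30.8% were under 50 kb and 10.3% were of 1 Mb or more. Among loops without a hub the shares were 30.9 and 12.1%, so such reach is no trait of hub loops. The farthest partner of a hub lay at a median of 1012 kb, and 71 hubs (6.84%) had every partner within 200 kb.

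The median span of single hubs ran from 15 to 1712 kb. The shortest was shared by 4 hubs, which lay on chromosomes 1, 6, 9 and 18 and had 6 to 8 loops. The one on chromosome 1, the bin from 16484001 to 16486000, had 6 loops, 4 of them under 50 kb, and yet 1 partner 1426 kb away. The longest belonged to the bin from 78076001 to 78078000 on chromosome 17. This bin had 7 loops, 6 of them of 1 Mb or more and up to 4360 kb, and none of its partners was a hub. All loops of the bins on chromosomes 1 and 17 rested on 1 contact, whereas the hubs that tied for the shortest span on chromosomes 6, 9 and 18 each had a loop with 2 or more.

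Most hubs looked both ways along the chromosome. A total of 980 hubs, or 94.4% (92.8 to 95.7%), had loops to lower and to higher positions, 37 had loops to higher positions only and 21 to lower positions only. With more loops a bin has more chances to show both sides, and 327 of the 365 hubs with 6 loops (89.6%) and 86.8% of the anchors with 5 loops (84.2 to 89.1%) did so. At 324 hubs (31.2%) at least 75% of the loops ran to 1 side. The one-sided hub with the most loops was the bin from 67462001 to 67464000 on chromosome 11, which was picked after its values were seen. All 11 of its loops ran to lower positions, and 6 of its partners were hubs.

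Most partner ends of hubs lay at anchors that had other loops as well. Of the 8392 partner ends, 18.6% were anchors with 1 loop, 53.4% had 2 to 5 loops and 28% had 6 or more, all of them hubs except for 5 ends in the left-out stretches. Of all loop ends in the list, 13.1% were at hubs, and the shares for the other classes of anchors were not computed. The 4805 distinct partners below the threshold included 930 (19.4%) that were joined to 2 or more hubs, and at most to 5. The others were each joined to 1 hub. Touching partner bins inflated the counts little. When touching partners were counted once, 906 hubs (87.3%) still had 6 or more partner stretches, and 92.6% of the partner ends were separate stretches.

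Loops that joined hubs were seen with 2 or more contacts more often than other loops. Contacts come from the same reads as the loops, so this is a description. The first bins of hubs also had a higher coverage, with a median of 39 against 12 for anchors under 6 loops. The part of coverage in these shares was not tested. Loops with 2 or more contacts made up 9.98% of those joining 2 hubs (8.40 to 11.8%), 4.88% of those with a hub at 1 end (4.37 to 5.45%) and 2.34% of those without a hub (2.15 to 2.53%). The order was the same within each class of span up to 1 Mb. From 10 to 50 kb the shares were 18.5, 10.3 and 5.09%, from 50 to 200 kb 9.47, 4.38 and 1.64%, and from 200 kb to 1 Mb 2.61, 1.46 and 0.861%. In the last of these classes the interval for a hub at 1 end (0.992 to 2.15%) overlapped both others. The intervals for loops joining 2 hubs (1.33 to 5.06%) and loops without a hub (0.667 to 1.11%) did not overlap. From 1 to 5 Mb the order was the opposite, with 0 of 90 loops joining 2 hubs (which allows up to 4.09% by the Wilson interval), 0.153% of those with a hub at 1 end (0.027 to 0.862%) and 0.372% of those without a hub (0.208 to 0.665%), and these intervals overlapped.

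Nevertheless, 94.3% of hub loops rested on 1 contact, and 643 hubs had no loop with more. A loop with 2 or more contacts was found at 28.2% of the hubs with 6 loops and at 20.1% of the anchors with 5. The strongest loops of the list were not at hubs, since loops without a hub reached 10 contacts. That maximum was at 200 kb to 1 Mb, where hub loops reached 3. Only 3 hub loops had 5 contacts, the highest number among hub loops. They joined the bins from 45988001 and 46016001 on chromosome 1, those from 64892001 and 64902001 on chromosome 11, and those from 98732001 and 98742001 on chromosome 7. The last of these joined 2 hubs, and the others joined a hub to an anchor with 1 or 2 loops. These 3 loops were singled out after their values were seen.

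Coverage rose with the number of loops. The first bins among the hubs, 1017 of the 1038, had a median coverage of 39 (interval 37 to 40), against 9 (9 to 9) for the anchors with 1 loop and 66 (60 to 72) for the hubs with 10 or more loops. The Spearman correlation of loops with coverage was 0.467 over 21481 first bins and 0.454 over the hubs, and both measures come from the same reads. Of the first bins with a coverage of 20 to 29, 7.11% were hubs (6.25 to 8.08%). The share was 27.3% (24.5 to 30.3%) at 40 to 59 and 62.7% (51.4 to 72.7%) at 100 or more.

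High coverage did not make a bin a hub in every case. Among the 75 first bins with a coverage of 100 or more, 28 had fewer than 6 loops. The hub with the highest coverage, 222, was the bin from 171756001 to 171758000 on chromosome 3, with 6 loops and 7 contacts. At the opposite end, the bin from 2926001 to 2928000 on chromosome 16 had a coverage of 6 and 6 loops of 1 contact, so that its listed contacts equalled its coverage. These 2 bins were picked after their values were seen. Over all hubs the listed contacts were 21.2% of the coverage (interquartile range 15.4 to 29.0%).

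Inside the segments of chromosomes 3 and 11, the share of hubs was above that of the rest in each class of coverage from 10 upward. At 10 to 19 it was 1.79% (1 to 3.17%) inside and 1.15% (0.936 to 1.42%) outside. At 30 to 39 it was 19.7% (15.3 to 25%) and 16.5% (14.3 to 18.9%), and the intervals overlapped in both classes. At a coverage of 20 to 29, 8.47% of first bins were hubs inside the segments (6.39 to 11.2%) and 6.82% outside (5.89 to 7.87%), with overlapping intervals. At 40 to 59 the shares were 37.6% (31.6 to 44%) and 23.8% (20.7 to 27.1%), and at 60 to 99 they were 59.0% (50.1 to 67.3%) and 41.8% (36.3 to 47.6%), with no overlap of the intervals in either class. At 100 or more the shares were 73.5 and 53.7% with overlapping intervals. The anchors with 1 loop had a median coverage of 17 in the segment of chromosome 3, 13 in that of chromosome 11 and 9 outside, and the part of copy number in the hubs of the segments was not tested.

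**Figure D4:**
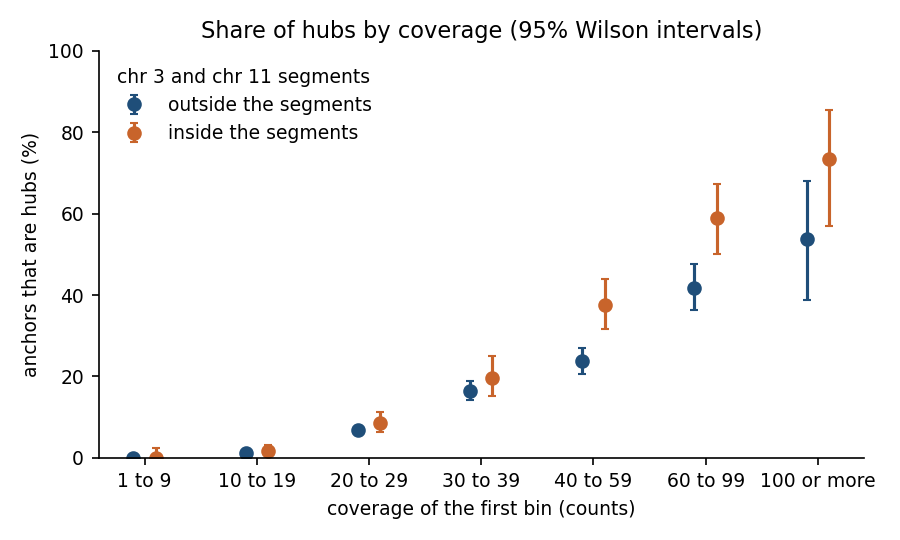
Share of first bins that are hubs in percent (y axis) by coverage (x axis), inside (orange) and outside (blue) the segments of chromosome 3 (120 to 200 Mb) and chromosome 11 (65 to 70 Mb), with 95% Wilson intervals. Both series rise with coverage, and the orange points lie above the blue ones without overlap at 40 to 59 and at 60 to 99.

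Hubs lay close to one another. A total of 304 hubs (29.3%) touched another hub, and 91.8% (90.0 to 93.3%) touched a bin with at least 1 loop, against 51.3% (50.6 to 52.0%) of the anchors with 1 loop and 85.9% (83.1 to 88.2%) of those with 5. Touching hubs formed 129 runs and the other 734 hubs stood alone. The gap to the nearest other run or lone hub had a median of 30 kb, and 583 of the 863 had one within 100 kb. Of the 175 pairs of touching hubs, 125 (71.4%) shared a partner bin, with a median of 1 and at most 5 shared. A median of 24.5% of a hub's partners lay at or next to a partner of the touching hub.

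The longest runs had 5 hubs over 10 kb, and there were 4 of them. On chromosome 1, the bins from 209570001 to 209580000 had 7, 8, 6, 10 and 8 loops, which led to 23 distinct partners in only 9 stretches. On chromosome 3, the bins from 189022001 to 189032000 had 13, 15, 10, 8 and 6 loops to 44 partners in 28 stretches, up to 4924 kb away. The first run thus spread over few partner regions and the second over many. The bins from 189626001 to 189636000 on the same chromosome had 6, 9, 8, 6 and 8 loops, all within 634 kb, and 16 of their 25 partners were hubs. On chromosome 7, the bins from 98726001 to 98736000 had 7, 7, 12, 6 and 6 loops to 27 partners in 19 stretches.

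Loops between hubs tied most of them into groups. A hub had a median of 2 hub partners, 286 hubs (27.6%) had none, and the other 752 formed 89 groups in which every hub is reached from every other through loops. Of these groups 40 were single pairs, whereas 15 groups of 10 or more hubs held 519 hubs. The loops between hubs closed 177 triangles, in which 223 hubs took part.

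The largest group was on chromosome 11, with 217 hubs between 61066001 and 70246000 joined by 522 loops, 44.5% of all loops between hubs. It was held together by long loops. With loops under 200 kb alone its largest remaining piece had 95 hubs, and with loops of 2 or more contacts alone it had 6, between 67146001 and 67252000. Without its 10 most connected hubs, 205 of the 217 hubs remained joined. Within its extent 22.3% of the anchors were hubs, and its loops had a median span of 152 kb and closed 86 triangles.

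The next 4 groups had fewer hubs over shorter extents. Hubs were 12.5 to 19.9% of the anchors within these extents, against 22.3% in the group of chromosome 11. On chromosome 3, 45 hubs between 182972001 and 190254000 were joined by 102 loops, and the hubs had a median coverage of 56. On chromosome 6, 40 hubs between 26018001 and 28894000 were joined by 70 loops with a median span of 54 kb. All but 1 of its hubs lay between 26 and 28 Mb. There were 39 loops between hubs at 26 to 27 Mb and 19 between hubs at 27 to 28 Mb. Another 11 loops joined these 2 windows over 542 to 1822 kb. The remaining loop led to the hub from 28892001 to 28894000. On chromosome 14, 31 hubs between 22802001 and 24734000 were joined by 38 loops, and on chromosome 7, 29 hubs between 98638001 and 100730000 were joined by 49 loops with the shortest median span of these 5 groups, 42 kb. The share of hub pairs joined was 2.23% in the group of chromosome 11 and 8.17 to 12.1% in the other 4. Such a share depends on the number of hubs in a group. In an extent above the 5000 kb limit of the list, some pairs also could not be joined, so these values cannot be compared directly.

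Coverage differed between these groups. The hubs had a median coverage of 39 on chromosome 11, 44 on chromosome 6, 36 on chromosome 14 and 56.5 on chromosome 7. Anchors with 1 loop within the same extents had medians of 11, 10, 13 and 17, respectively, and 19 on chromosome 3. Per 100 units of coverage, the hubs had a median of 21.4 loops on chromosome 11, 15.4 on chromosome 3, 18.9 on chromosome 6, 22.2 on chromosome 14 and 14.8 on chromosome 7. The groups of chromosomes 3 and 7, with the highest coverage, had the lowest values. Hubs were chosen by their loops, with a median of 7 or 8 in each of these groups, so this ratio largely restates the coverage.

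Pairs of hubs were joined more often than pairs of other anchors at the same distance, which follows in part from their larger number of loops. At 10 to 50 kb, 31.8% of 1241 pairs of hubs were joined (29.3 to 34.5%), against 23.7% of the pairs of anchors with 5 loops (18.1 to 30.3%) and 5.78% of those with 1 loop (5.46 to 6.11%). At 50 to 200 kb the shares were 14.5, 7.87 and 1.89%, at 200 kb to 1 Mb 3.69, 2.22 and 0.528%, and at 1 to 5 Mb 0.471, 0.277 and 0.0719%. The hubs and the anchors with 5 loops had overlapping intervals in the first and the last of these classes.

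**Figure D5:**
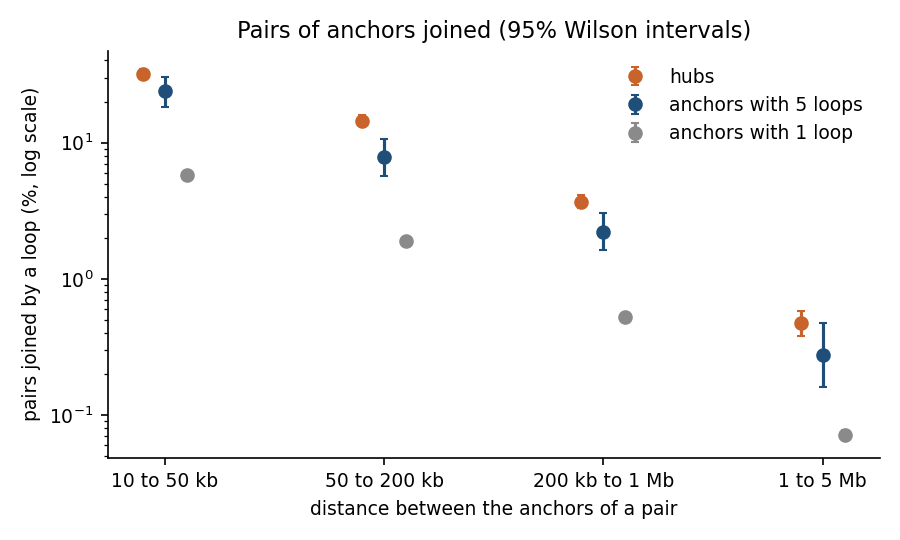
Share of anchor pairs joined by a loop in percent (y axis, log scale) by the distance between them (x axis), for hubs (orange), anchors with 5 loops (blue) and anchors with 1 loop (grey), with 95% Wilson intervals. All 3 series fall with distance, and the hubs go from 31.8% at 10 to 50 kb to 0.471% at 1 to 5 Mb.

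The crowded segments differed from the rest in how hubs met. Inside the segments of chromosomes 3 and 11 a hub had a median of 4 hub partners (interquartile range 2 to 6), and outside a median of 1 (0 to 2). A given pair of hubs 10 to 50 kb apart was joined less often inside, at 24.8% (21.7 to 28.2%) against 39.5% (35.6 to 43.6%) outside. At 50 to 200 kb the shares were 11.8% (10.3 to 13.4%) and 19.1% (16.7 to 21.8%), and at 200 kb to 1 Mb 3.07% (2.66 to 3.55%) and 5.79% (4.84 to 6.92%). At 1 to 5 Mb the shares of 0.503 and 0.580% had overlapping intervals. There were 661 pairs at 10 to 50 kb among the 298 hubs inside, and 572 among the 740 outside. Hubs were chosen by their loops, with a median of 8 inside and 7 outside. The share of pairs joined and the number of hub partners both depend on how densely hubs lie, so neither can be compared directly. The median span of a hub was 159 kb inside (86.5 to 256.8 kb) and 106 kb outside (59.8 to 192.5 kb). A loop with 2 or more contacts was found at 35.9% of hubs inside (30.7 to 41.5%) and at 38.9% outside (35.5 to 42.5%), with overlapping intervals.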

How the data were processed

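H3K27ac HiChIP of KYSE180 cells transfected with non-targeting siRNA was used (2 libraries). Per the labels and the study's methods, the authors used HiC-Pro up to contact matrices and then FitHiChIP (Peak-To-All) for active loops associated with p63, kept those acetylated at both ends, and deposited 1 list on hg19 for both libraries. Versions and thresholds are not given in the sources used here. The authors deposited 2 unnamed, unnormalized columns, read here as counts of contacts per loop and as coverage (signal) of the first bin. The depth of the libraries is not shown. Spans run from 10 to 5000 kb, so closer partners are missed.

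Loops were counted for each 2 kb bin in either column of bins, and bins with 6 or more were kept. The members, gene lists and segments were chosen with earlier results of these data known. The text names the 12 hubs with the most loops, the hubs with the longest and shortest median span, the longest runs and the 5 largest groups. Hubs are never replicates of a condition, and no test was run. Counting was tested on a simulated list with planted hubs. Protein-coding genes per chromosome came from GENCODE 44, and chromosomes of listed genes from RefSeq. Groups were built with networkx 3.6.1 and intervals with scipy 1.17.1, using pandas 2.3.3 and numpy 2.4.6 under Python 3.11.15. Figures were drawn with matplotlib 3.10.9.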

Additional observations from a re-analysis of the deposited data

How the results depend on the processing

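Of 33 recomputed values of 13 results, 10 stayed within the counting interval or within 1.5 times the count. With 5 or more loops there were 1760 hubs in place of 1038, and with 8 or more 453. The shares at these 2 thresholds were 31.3 and 13.2% of loops with a hub, 19.9 and 10.7% of hub loops joining 2 hubs, 5.16 and 6.43% of hub loops with 2 or more contacts, 91.3 and 98.7% of hubs with loops on both sides, and 24.4 and 34.7% of hubs in the segments of chromosomes 3 and 11. The median coverage was 32 and 49, and with 8 or more loops 23% of hubs touched another. Without both segments the median coverage was 35. With loops of 20 kb or more the median span was 156 kb, by construction. Among anchors under 6 loops in place of those with 1, 59% touched another anchor and 7.64% lay in the segments, and among 1-loop first bins with a coverage of 20 or more, 55.5 and 15.8% did. The largest group had 95 hubs with loops under 200 kb. With loops of 2 or more contacts the largest was another group, on chromosome 1, with 7 hubs. Both settings were chosen after seeing the data. For the other changes the cause was not tested. The planned shares of hubs with a gene's 5′ end, a CpG-rich kilobase and an AP-1 motif could not be computed without an annotation and genome on hg19. No paired analysis was possible because there is a single condition, whose libraries were merged before deposit. Leaving out a library could not be done either.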
